A study of Mus musculus with 9 samples.

Results

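Mitosis genes encode the proteins that drive a dividing cell from the end of DNA replication through chromosome segregation to cytokinesis. The set described here holds 50 genes of the 28379 in the deposited table. They were chosen by name: cyclins A and B with CDK1 and its phosphatase, mitotic kinases, checkpoint and kinetochore proteins, kinesins, cytokinesis and anaphase factors, condensin subunits, and the transcription factors FOXM1 and B-MYB. All 50 were found in the table by gene name, and all 50 passed the filter on low counts, which left 17002 genes. The list, which uses names and no measured value, was drawn up with earlier results of these data known. In the table's own gene annotation 35 of the 50 carry the GO terms for cell cycle or cell division, which 2.04% of all genes carry.

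The cells were bone marrow-derived macrophages (BMDMs) of C57BL/6J mice, the precursors that RANKL turns into osteoclasts. All groups were kept in M-CSF (20 ng/ml), the growth factor that sustains macrophage survival and proliferation, and were harvested after 48 h. In the PBS group there was no further cytokine. RANKL was added at 100 ng/ml in the RANKL group. The third group, RANKL + Vit D + K, had the same dose of RANKL together with vitamin D (calcitriol, 1000 nM) and vitamin K (menaquinone-4). For vitamin K the labels give 20 μM and the study's text a higher dose. Each group has 3 RNA-seq libraries made from poly(A) RNA. The study describes pooled RNA and does not say which cultures each library came from, so that p-values measure the spread between these libraries, which may be technical.

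In cells that stop dividing, most of these genes are switched off together. Their promoters are known to be held silent in quiescence by the DREAM complex, which binds a short element called the cell cycle genes homology region (CHR), and to be activated in late S phase and G2 by B-MYB and FOXM1, often beside CCAAT boxes bound by NF-Y. Macrophage precursors divide in response to M-CSF, and osteoclast precursors leave the cell cycle before they fuse. In RNA from whole cultures, fewer dividing cells and less RNA per dividing cell cannot be told apart.

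The depth of the libraries was nearly equal, between 65915112 and 68229647 counts, at which 3 counts, the floor used here, equal at most 0.0455 CPM (counts scaled to library size). Counts of the 50 genes lay between 41 and 58150 in every library, so none was near the floor. The libraries numbered 2 stood apart. In the PBS and RANKL groups, replicate 2 was the highest library for 50 of 50 mitosis genes, against 34% and 35.7% of all genes tested. With the vitamins this held for 48 of 50 in CPM scaled by TMM, against 44.5% of all genes, the exceptions being Mki67 and Kif4, and for 50 of 50 in FPKM (fragments per kilobase of transcript, scaled to library size). Over all genes tested, replicate 2 was the highest library of all 3 groups for 9.23%. Counts of the 50 members called by edgeR are therefore given with and without these libraries, and those of other lists where stated. Counts over classes of members and values of single genes rest on all 9 libraries unless stated.

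The 50 genes share sequence features that the choice by name did not use. Promoters from RefSeq (GRCm38.p6), each running from 250 bases before to 50 bases after an annotated start site, were found for 42 of the 50 genes, with 44 promoters in all. The CHR core TTTGAA, searched on both strands, was present in 35 of 44 (79.5%), against 17.9% of all 32851 promoters in the table. CCAAT, searched on both strands, was present in 33 of 44 (75%), against 37.4% of all promoters. Both were present in 30 of 44 (68.2%), against 6.95% of all, and matches to these motifs overlapped at 1 place in these promoters. The 47 CHR matches had a median position 3 bases after the start site, with 36 of them within 50 bases of it, and the 75 CCAAT matches had a median position 67 bases before it (-67). A match describes the sequence and is not a measured binding site. The 8 genes without an entry were Foxm1, Ccna2, Cdc25c, Aurkb, Incenp, Kif20a, Spc24 and Tpx2.

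The 120 bases before the start site are shown, 5′ to 3′ on the strand of the gene, for 5 members that hold both motifs there. They are the cell cycle kinase Cdk1, Top2a, a common marker of proliferation, the spindle motor Kif11, Cdc20 as the anaphase activator, and Espl1, whose means were close in the 2 RANKL-treated groups. Capitals mark the CHR core (TTTGAA or its reverse complement TTCAAA) and the CCAAT box (CCAAT or its reverse complement ATTGG).
Cdk1, chr10:69352913-69353032, minus strand: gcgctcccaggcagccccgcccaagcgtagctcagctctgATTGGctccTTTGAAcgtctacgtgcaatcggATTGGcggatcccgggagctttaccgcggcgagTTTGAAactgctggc
Top2a, chr11:99024190-99024309, minus strand: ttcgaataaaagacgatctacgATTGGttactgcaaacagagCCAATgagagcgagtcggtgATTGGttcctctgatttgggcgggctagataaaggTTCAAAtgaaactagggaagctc
Kif11, chr19:37376262-37376381, plus strand: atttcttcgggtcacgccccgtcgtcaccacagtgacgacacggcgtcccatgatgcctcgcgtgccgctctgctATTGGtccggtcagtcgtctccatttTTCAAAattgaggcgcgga
Cdc20, chr4:118437344-118437463, minus strand: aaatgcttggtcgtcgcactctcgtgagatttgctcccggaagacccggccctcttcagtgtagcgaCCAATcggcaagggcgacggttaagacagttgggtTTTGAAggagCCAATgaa
Espl1, chr15:102296173-102296292, plus strand: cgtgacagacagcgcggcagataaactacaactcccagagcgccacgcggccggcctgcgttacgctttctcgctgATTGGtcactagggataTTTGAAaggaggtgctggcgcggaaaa
Cdk1 holds 2 CHR cores and 2 CCAAT boxes in this stretch, and Top2a holds 1 and 3. Espl1 and Kif11 each hold 1 of both. Most member promoters do not hold both motifs in this stretch. Bub1 and Bub1b hold no CHR core there, and Ndc80 holds neither motif.

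**Figure D1:**
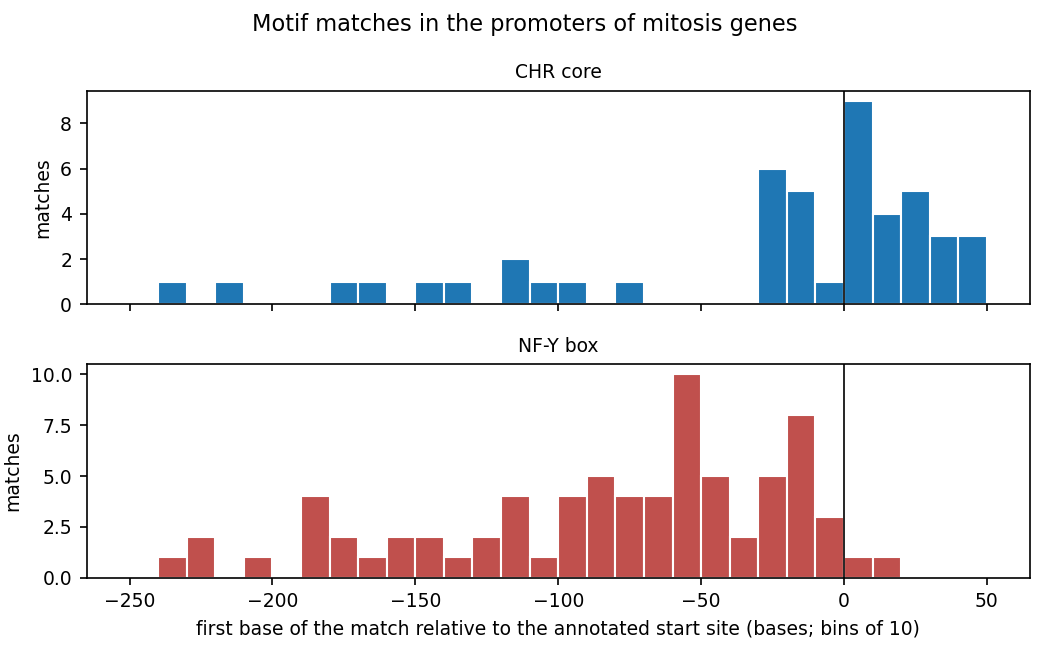
Number of motif matches (y axis, per bin of 10 bases) in the 44 promoters of mitosis genes, by the distance of the first base of the match from the annotated start site (x axis, in bases). CHR cores gather around the start site (median 3), and NF-Y boxes lie before it (median -67).

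The level of the whole set differed between libraries of the same group. The median member, in CPM scaled by TMM, stood at 6.46, 31.1 and 8.12 in PBS replicates 1, 2 and 3. It stood at 17.8, 61.2 and 22.3 in the RANKL replicates, and at 46.2, 70.9 and 56.8 in the RANKL + Vit D + K replicates. The 3 vitamin libraries were thus high and close together, whereas in the other groups replicate 2 was far above replicates 1 and 3. Within the PBS group, replicate 2 was higher than the mean of replicates 1 and 3 by a median of 5.18 times over the members (from 1.35 for Incenp to 7.72 for Hmmr). The median ratio was 3.42 in the RANKL group (1.95 to 4.86) and 1.39 with the vitamins (1.04 to 2.5), while over all genes the median ratio, which scaling to library size holds near 1, lay between 0.966 and 1.04. The 50 genes together took 0.0512% of the counts in PBS replicate 1 and 0.533% in RANKL + Vit D + K replicate 2.

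**Figure D2:**
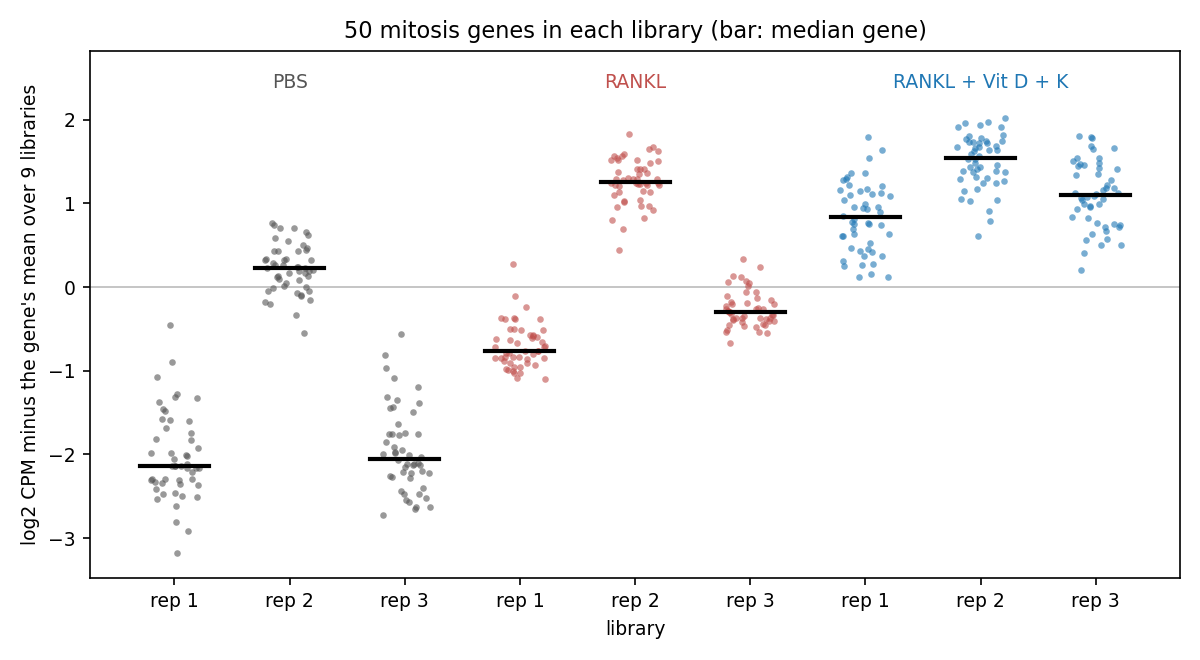
Each point is a mitosis gene in a library, as log2 CPM minus that gene's mean over all 9 libraries (y axis), with the median of the 50 genes as a black bar and the libraries on the x axis. Replicate 2 lies above replicates 1 and 3 in the PBS and RANKL groups, and the 3 libraries of the RANKL + Vit D + K group lie close together at a high level.

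Markers of other cell types were read in the same libraries. Of 9 neutrophil and granulocyte precursor markers 8 were tested. Their summed FPKM was 65.3, 129 and 11.1 in the PBS replicates and 90.6, 148 and 11.3 in the RANKL replicates. In the RANKL + Vit D + K replicates, where the mitosis genes were high, the sum was 0.757, 1.72 and 0.551, and Camp, Ltf, Mpo, Elane, Prtn3 and Ly6g were listed at 0 in all 3. Replicate 2 was the highest library for this list in all 3 groups. The summed FPKM of 9 osteoclast markers was also highest in replicate 2 of the RANKL group (658, 1020 and 487), and that of 8 macrophage markers was lowest there (24300, 16700 and 24200). The macrophage sum was 26400 to 30600 in the PBS group and 4540 to 11600 with the vitamins. Most of each macrophage sum was Lyz2 alone, with 22200, 15000 and 22200 in the RANKL replicates and 3190, 10200 and 4850 with the vitamins. Relative to RANKL the vitamins lowered 6 of the 8 markers and raised 1 (edgeR), where 17.2% of all genes were called lower and 16.4% higher. Markers of haematopoietic progenitors, erythroid cells, lymphocytes and fibroblasts each summed to at most 0.593 FPKM in any library. The markers' part in the differences between replicates was not tested.

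The first comparison asked whether RANKL changed the mitosis genes. All 50 had a higher mean with RANKL than with PBS in edgeR's quasi-likelihood model of the 9 libraries (log2 fold changes 0.22 to 2.06, median 1.15), against 45.7% of all genes. None of the 50 passed at an adjusted p-value under 0.05, where 2.35% of all genes were called higher and 1.26% lower. At an unadjusted p-value under 0.05 there were 4 members (Mybl2, Kif15, Espl1 and Smc2), against 9.96% of all genes higher, and DESeq2 called 2 members, against 6.21% of all genes higher. The RANKL libraries overlapped the PBS libraries for 48 of 50 members in CPM, for 47 of them only through PBS replicate 2. The exceptions, 2 members against 15.7% of all genes higher without overlap, were Mybl2 and Espl1.

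Libraries with the same replicate number deviated together between these groups, so the comparison was also made within numbers. RANKL was higher than PBS in 3 of 3 same-numbered pairs for 49 of 50 members, against 24.9% of all genes, and the exception was Incenp. When edgeR's model held the replicate number as a block, 10 of 50 members rose with RANKL, against 3.16% of all genes, and the median log2 fold change was 1.34. The 10 were Mybl2, Aurka, Bub1b, Mad2l1, Aurkb, Birc5, Spc24, Spc25, Espl1 and Smc2. Without the 3 libraries of replicate 2, which were left out after their values were seen, 43 of 50 rose, against 5.73% of all genes. The 7 that did not pass the threshold were Mybl2, Aurkb, Incenp, Kif22, Kif23, Cenpa and Ncaph. Of these only Incenp had a log2 fold change below 0 (-0.0224). That fit rests on 2 libraries per group chosen for lying close together in these genes. Leaving out PBS replicate 2 alone gave 1 member, against 1.12% of all genes, and raised the median log2 fold change from 1.15 to 2.54. Leaving out RANKL replicate 2 alone gave none, against 0.767% of all genes, and lowered the median to 0.326.

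The second comparison asked whether adding vitamins D and K to RANKL changed the mitosis genes. In edgeR's model 49 of 50 had a higher mean with the vitamins (log2 fold changes -0.01 to 1.55, median 0.84), against 47.9% of all genes. None passed at an adjusted p-value under 0.05, although 16.4% of all genes were called higher and 17.2% lower in this comparison. At an unadjusted p-value under 0.05 there was 1 member, Incenp, against 21.1% of all genes higher, and DESeq2 called 1 member, against 19% of all genes higher. In CPM the vitamin libraries lay above all RANKL libraries for 7 of 50 members (Ccnb1, Bub1, Incenp, Kif4, Ndc80, Tpx2 and Ube2c), which is below the 21.5% of all genes. In FPKM, which is scaled otherwise, this held for 1 member, Bub1. For the other 43 members in CPM the overlap was only through RANKL replicate 2. Without the libraries of replicate 2, 43 of 50 rose with the vitamins, against 24.6% of all genes, and the median log2 fold change was 1.49. The 7 that did not pass the threshold were Mybl2, Ccnb2, Bub1b, Aurkb, Kif20a, Aspm and Espl1, all with log2 fold changes above 0. The log2 fold changes in that fit were 2.38, 2.53 and 2.28 for Bub1, Ndc80 and Top2a, and 0.39 and 0.20 for Bub1b and Espl1. As these libraries were left out for their values in the same genes, the calls of that fit are a description. Leaving out RANKL replicate 2 alone gave 9 members, against 14.2% of all genes, and PBS replicate 2 alone 1, against 14%.

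The third comparison set the vitamin group against the PBS group, so that RANKL and the vitamins changed together. All 50 had a higher mean with RANKL + Vit D + K (log2 fold changes 0.91 to 3.17, median 2.01), against 47.9% of all genes. Of these 28 (56%) passed at an adjusted p-value under 0.05 in edgeR's test, against 19.8% of all genes called higher, and none was lower, against 21%. At an unadjusted p-value under 0.05 there were 40 (24% of all genes), and DESeq2 called 40 (23%). In CPM all vitamin libraries lay above all PBS libraries for 42 of 50 members (40 in FPKM), against 24.1% of all genes. The 8 that overlapped were Ccnb2, Plk1, Bub1b, Birc5, Kif2c, Kif20a, Cenpa and Aspm. The number of calls rested on single libraries. It was 50 without PBS replicate 2, where 16.6% of all genes were called higher, and 2 without PBS replicate 1 or replicate 3, where 13.9% and 14.5% were. It was 18 without replicate 2 of the vitamin group (23.3% of all genes) and 10 without its replicate 3 (15%). Without all replicate 2 libraries 50 of 50 rose, against 25.9% of all genes. The 3 comparisons share their groups, so they are not independent of each other.

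**Figure D3:**
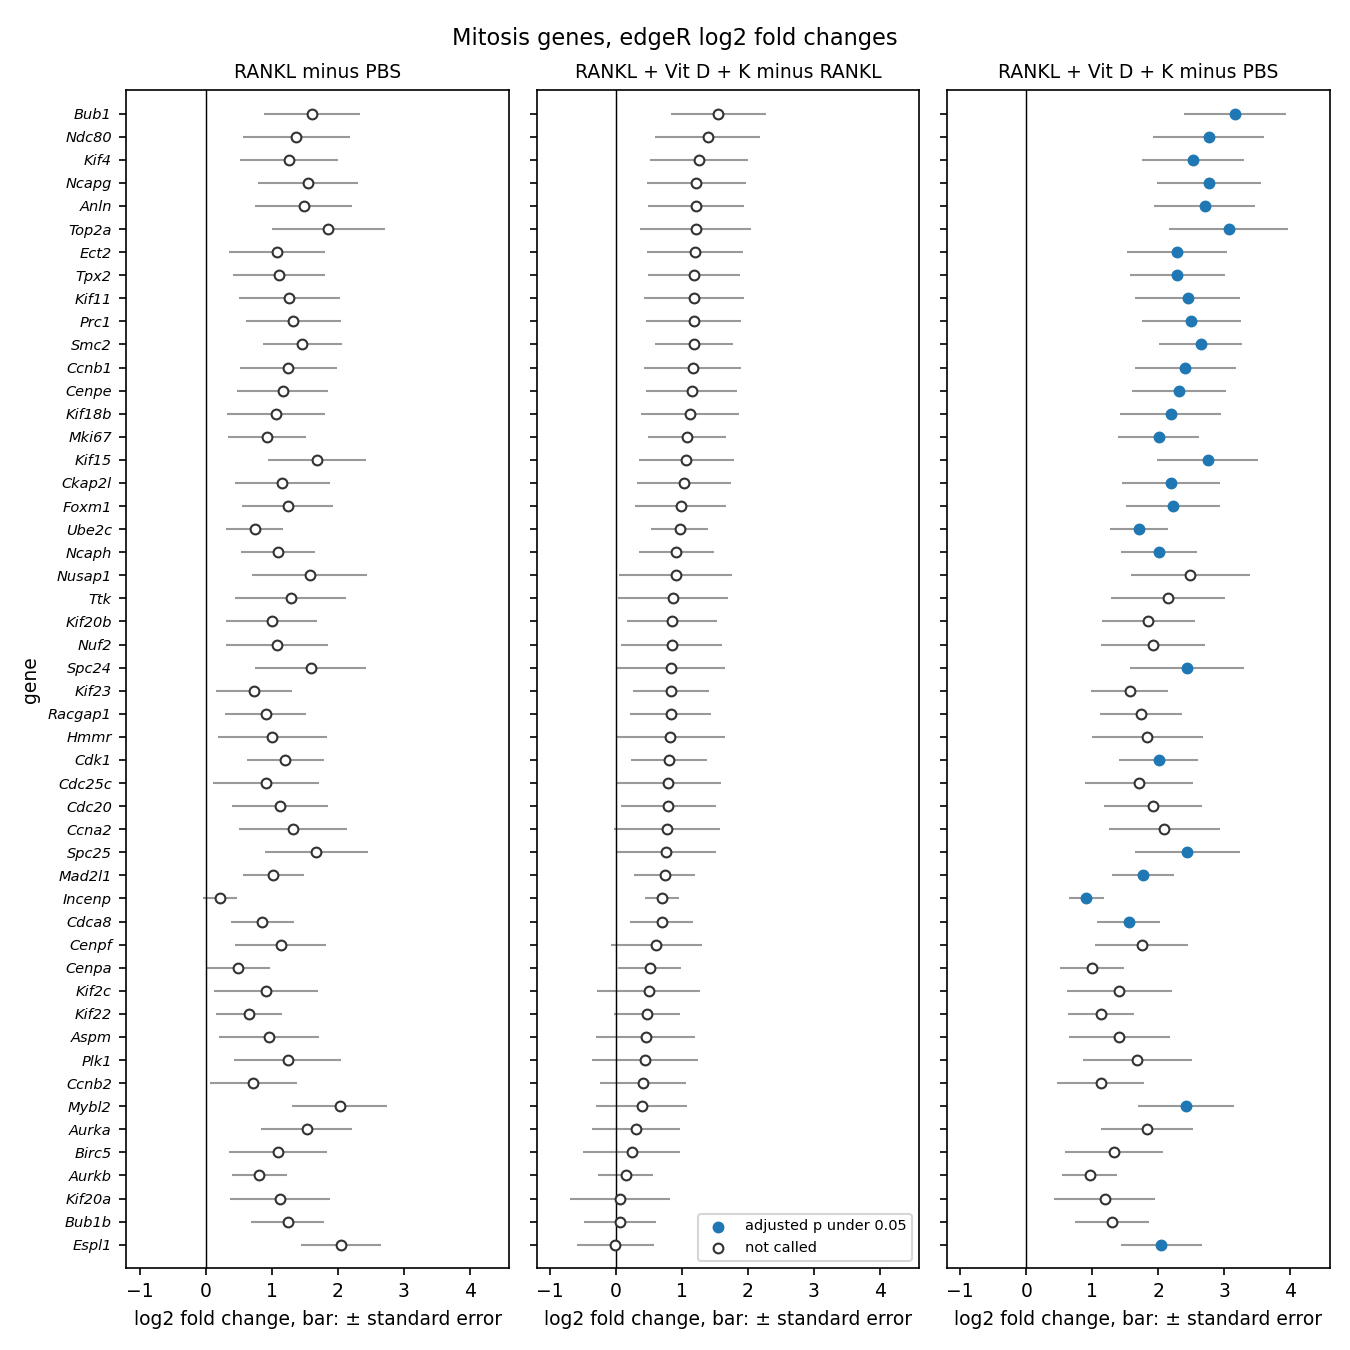
Log2 fold change (x axis) with its standard error (bar) of each mitosis gene (y axis, ordered by the middle panel) in the 3 comparisons, from edgeR's model of all 9 libraries. Filled points passed at an adjusted p-value under 0.05, which 28 genes did in the right panel and none did in the other panels.

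The transcription factors of the set both had a low level with PBS. Foxm1 (ENSMUSG00000001517, chromosome 6, 128362967 to 128376146, plus strand), which activates G2 and M phase genes, had FPKM of 0.957, 4.99 and 0.958 with PBS, 3.20, 11.6 and 3.24 with RANKL, and 7.61, 15.4 and 8.94 with RANKL + Vit D + K. Mybl2 (ENSMUSG00000017861, chromosome 2), which encodes B-MYB, had FPKM of 0.396, 0.704 and 0.181 with PBS, 1.01, 4.14 and 0.743 with RANKL, and 1.27, 4.15 and 1.59 with the vitamins. Mybl2 thus separated PBS from both other groups, and its RANKL and vitamin libraries overlapped. Both rose between PBS and RANKL + Vit D + K, Foxm1 by 2.22 in log2 units (standard error 0.715, adjusted p = 0.0341, edgeR) and Mybl2 by 2.42 (standard error 0.726, adjusted p = 0.0259, edgeR). Between RANKL and PBS, Mybl2 differed by 2.03 without the block (adjusted p = 0.166) and rose by 1.83 with it (adjusted p = 0.0249, edgeR).

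The cyclins of the set bind CDK1 and carry cells into mitosis. Ccnb2 (ENSMUSG00000032218, chromosome 9), for cyclin B2, had FPKM of 6.73, 32.4 and 4.51 with PBS, 15.6, 41.0 and 21.8 with RANKL, and 20.8, 45.2 and 28.6 with the vitamins. Ccna2 (ENSMUSG00000027715, chromosome 3), for cyclin A2, had FPKM of 1.77, 13.2 and 1.77 with PBS, 6.58, 30.6 and 8.81 with RANKL, and 14.9, 35.6 and 20.4 with the vitamins. In both genes replicate 2 of the PBS group exceeded RANKL replicates 1 and 3, and neither passed in any of the 3 comparisons in edgeR's model of all 9 libraries without the block. Ccnb1 and Cdk1 rose between PBS and the vitamin group (log2 fold changes 2.41 and 2.005, adjusted p = 0.0318 and 0.025, edgeR). Cdc25c, the phosphatase that activates CDK1 and the member with the lowest mean FPKM (1.11), differed by 1.71 (log2) without passing (adjusted p = 0.124, edgeR).

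Mki67 and Top2a, whose products coat mitotic chromosomes and untangle DNA, are common markers of proliferating cells. Mki67 (ENSMUSG00000031004, chromosome 7, 135689784 to 135716361, minus strand) had the highest mean FPKM of the set (38.4), with 9.30, 31.5 and 8.14 under PBS, 15.5, 66.0 and 21.6 under RANKL, and 49.8, 75.1 and 68.5 under RANKL + Vit D + K. Top2a (ENSMUSG00000020914, chromosome 11, 98992943 to 99024189, minus strand) had 1.27, 11.4 and 1.83 with PBS, 7.14, 41.8 and 9.46 with RANKL, and 33.1, 47.9 and 38.4 with the vitamins. Replicates 1 and 3 of the vitamin group were more than 2 times those of the RANKL group in both genes, whereas replicate 2 of the RANKL group lay within the vitamin range. Between PBS and the vitamin group Mki67 rose by 2.01 in log2 units (standard error 0.611, adjusted p = 0.0273, edgeR) and Top2a by 3.07 (standard error 0.9, adjusted p = 0.0237, edgeR). Between RANKL and the vitamin group the log2 fold changes were 1.08 (95% interval -0.261 to 2.42) and 1.21 (-0.691 to 3.11), and neither passed.

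The mitotic kinases PLK1 and Aurora A, which govern centrosomes and spindle assembly, form a class of 2 genes. Plk1 (ENSMUSG00000030867, chromosome 7) had FPKM of 1.86, 11.2 and 1.51 with PBS, 5.24, 25.2 and 7.50 with RANKL, and 8.46, 25.7 and 12.6 with the vitamins. Aurka (ENSMUSG00000027496, chromosome 2) had FPKM of 1.13, 5.52 and 1.43 with PBS, 3.71, 16.9 and 5.24 with RANKL, and 6.11, 14.7 and 7.90 with the vitamins. Replicate 2 was nearly equal in the 2 RANKL-treated groups for Plk1 and lower with the vitamins for Aurka. Neither passed between any groups in the model without the block. With it, Aurka rose between PBS and RANKL by 1.59 in log2 units (standard error 0.254, adjusted p = 0.0193, edgeR) and Plk1 differed by 1.46 (adjusted p = 0.0547).

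The spindle checkpoint kinase Bub1 and the related Bub1b, for BUBR1, delay anaphase until chromosomes are attached, and their values differed. Bub1 (ENSMUSG00000027379, chromosome 2, 127801122 to 127831865, minus strand) had FPKM of 0.985, 5.51 and 0.897 with PBS, 3.64, 16.4 and 4.99 with RANKL, and 19.4, 25.1 and 20.5 with the vitamins. Bub1b (ENSMUSG00000040084, chromosome 2, 118598211 to 118641591, plus strand) had FPKM of 3.73, 14.6 and 4.39 with PBS, 11.0, 34.2 and 13.9 with RANKL, and 12.4, 26.9 and 16.5 with the vitamins. Every vitamin library was above every RANKL library for Bub1 in both units, and for Bub1b the 2 groups overlapped. Bub1 had the largest difference of the set between the vitamin and RANKL groups, 1.55 in log2 units (standard error 0.722, adjusted p = 0.127, edgeR), and that of Bub1b was 0.06 (standard error 0.55, adjusted p = 0.944). Between PBS and the vitamin group Bub1 rose by 3.17 on the log2 scale, 8.98-fold (adjusted p = 0.0108, edgeR), and Mad2l1, another checkpoint gene, rose by 1.77 (adjusted p = 0.0163). Ttk did not pass (log2 fold change 2.15, adjusted p = 0.0734).

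The chromosomal passenger complex corrects faulty attachments and later directs cytokinesis. Its scaffold gene Incenp (ENSMUSG00000024660, chromosome 19, 9872296 to 9899551, minus strand) had FPKM of 15.2, 20.3 and 13.9 with PBS, 14.2, 32.5 and 16.5 with RANKL, and 27.6, 34.3 and 29.7 with the vitamins. Aurkb (ENSMUSG00000020897, chromosome 11), for the kinase Aurora B, had FPKM of 3.85, 7.89 and 3.63 with PBS, 5.47, 16.3 and 7.98 with RANKL, and 7.22, 14.8 and 7.98 with the vitamins. Incenp varied least of the set between replicates, and its PBS and RANKL libraries overlapped. Its vitamin libraries lay above all others in CPM, whereas in FPKM RANKL replicate 2 lay within their range. Between RANKL and the vitamin group Incenp had the smallest p-value of the set (log2 fold change 0.70, standard error 0.259, 95% interval 0.112 to 1.28), with an adjusted p of 0.0657 in edgeR's test. Between PBS and the vitamin group Incenp and Cdca8 rose (log2 fold changes 0.91 and 1.55, adjusted p = 0.0211 and 0.0301, edgeR). Aurkb and Birc5 did not pass (log2 fold changes 0.96 and 1.34, adjusted p = 0.0952 and 0.179, edgeR).

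**Figure D4:**
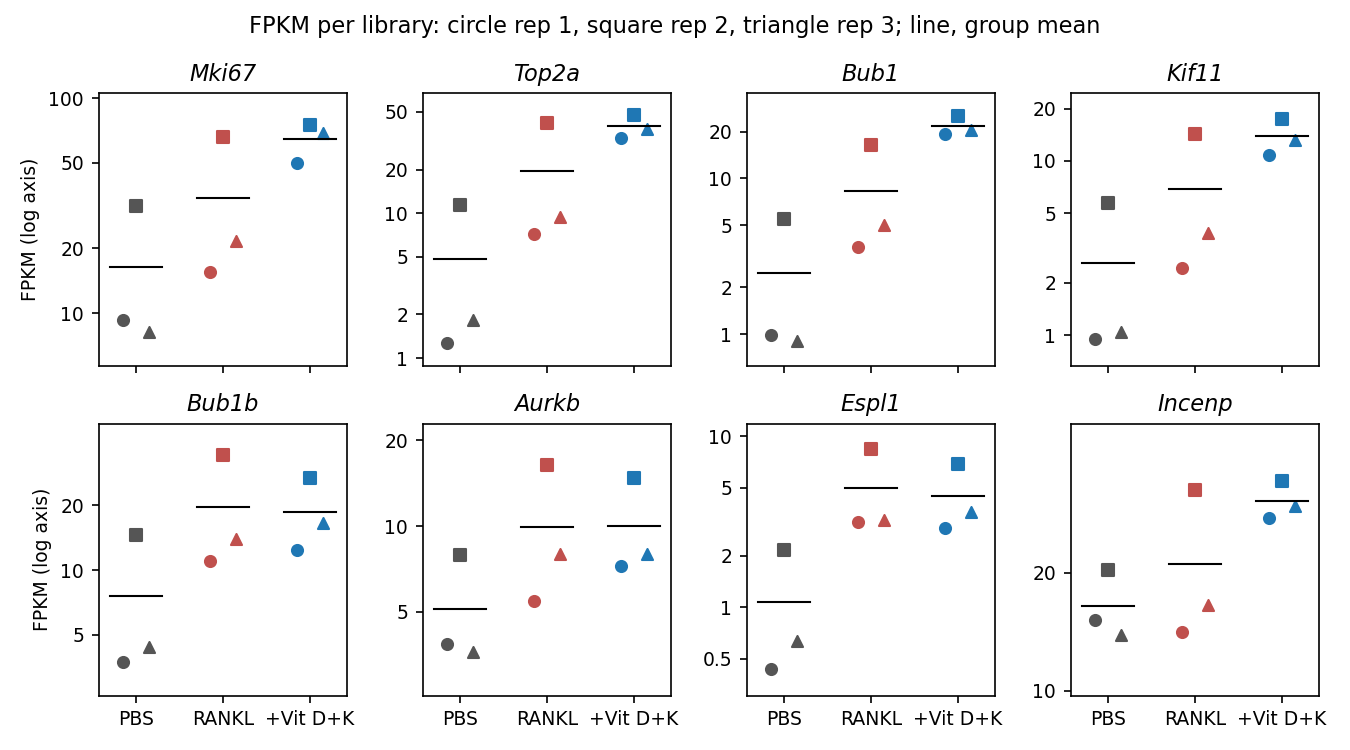
FPKM (y axis, log scale) of 8 mitosis genes in each library of the 3 groups, with the group mean as a line (3 libraries per group). For Bub1 the 3 vitamin libraries lie above all RANKL libraries, and for Bub1b, Aurkb and Espl1 the 2 RANKL-treated groups overlap.

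The 9 kinesins of the set move chromosomes and slide spindle microtubules. Kif11 (ENSMUSG00000012443, chromosome 19, 37376403 to 37421859, plus strand), the motor that separates the spindle poles, had FPKM of 0.956, 5.76 and 1.04 with PBS, 2.44, 14.3 and 3.87 with RANKL, and 10.9, 17.4 and 13.3 with the vitamins. Kif4 (ENSMUSG00000034311, chromosome X), a chromosome-bound motor, had FPKM of 0.391, 2.53 and 0.469 with PBS, 1.17, 6.02 and 1.83 with RANKL, and 5.03, 7.46 and 6.65 with the vitamins. Kif20a (ENSMUSG00000003779, chromosome 18), which acts in cytokinesis, had FPKM of 1.70, 10.9 and 1.65 with PBS, 5.36, 21.7 and 7.17 with RANKL, and 6.46, 16.7 and 9.20 with the vitamins. For Kif11 and Kif4 replicates 1 and 3 of the vitamin group stood well above those of the RANKL group, and for Kif20a they were close to them. Between PBS and the vitamin group 4 of the 9 kinesins rose, against 19.8% of all genes. These were Kif11, Kif4, Kif15 and Kif18b, with log2 fold changes of 2.45, 2.52, 2.75 and 2.19 (adjusted p = 0.0354, 0.0283, 0.0192 and 0.047, edgeR). Kif20a shares 29.3% of its exon bases with Cdc23 on the other strand, and Kif4 shares 15.1% with Pdzd11. Whether the counting used the strand is not stated, so reads of such neighbours cannot be told apart.

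Centromere and kinetochore proteins tie chromosomes to microtubules. Cenpe (ENSMUSG00000045328, chromosome 3), a kinetochore motor, had FPKM of 0.933, 5.66 and 1.20 with PBS, 3.01, 12.2 and 4.08 with RANKL, and 9.17, 16.3 and 12.7 with the vitamins. Cenpa (ENSMUSG00000029177, chromosome 5), the histone H3 variant of centromeres, had FPKM of 2.78, 8.23 and 2.72 with PBS, 3.83, 11.9 and 5.50 with RANKL, and 6.46, 11.1 and 9.59 with the vitamins. Ndc80 (ENSMUSG00000024056, chromosome 17), a subunit of the complex that grips microtubules, had FPKM of 0.328, 1.87 and 0.275 with PBS, 0.840, 5.16 and 1.11 with RANKL, and 4.49, 6.44 and 5.53 with the vitamins. Replicate 2 of the RANKL group lay within the vitamin range of Ndc80 in FPKM and below it in CPM, and the vitamin libraries of Cenpa overlapped both other groups. Ndc80, Cenpe, Spc24 and Spc25, 4 of the 7 genes of this class against 19.8% of all genes, rose between PBS and the vitamin group (log2 fold changes 2.76, 2.32, 2.43 and 2.44, adjusted p = 0.0277, 0.0289, 0.0483 and 0.0354, edgeR). Cenpa, Cenpf and Nuf2 did not pass (log2 fold changes 1.00, 1.75 and 1.92).

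Of 5 spindle-associated genes, Tpx2 (ENSMUSG00000027469, chromosome 2), for the activator of Aurora A, had FPKM of 1.62, 8.84 and 1.67 with PBS, 4.18, 18.7 and 5.94 with RANKL, and 15.6, 23.5 and 19.0 with the vitamins. Ckap2l (ENSMUSG00000048327, chromosome 2) had FPKM of 1.11, 6.05 and 1.11 with PBS, 3.10, 13.8 and 3.56 with RANKL, and 9.81, 15.4 and 11.9 with the vitamins. These 2 genes rose between PBS and the vitamin group (log2 fold changes 2.29 and 2.19, adjusted p = 0.0315 and 0.0414, edgeR). Hmmr, Nusap1 and Aspm had log2 fold changes of 1.84, 2.48 and 1.41 in the same comparison and did not pass (adjusted p = 0.11, 0.0522 and 0.168, edgeR).

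Cytokinesis genes encode the proteins of the central spindle and the contractile ring. Anln (ENSMUSG00000036777, chromosome 9), for the ring protein anillin, had FPKM of 0.882, 4.42 and 0.767 with PBS, 2.48, 12.3 and 3.94 with RANKL, and 8.63, 18.5 and 12.1 with the vitamins. Racgap1 (ENSMUSG00000023015, chromosome 15), a central spindle subunit, had FPKM of 2.18, 8.40 and 1.79 with PBS, 4.03, 15.6 and 6.04 with RANKL, and 10.4, 18.5 and 12.01 with the vitamins. The RANKL and vitamin libraries overlapped, and the vitamin libraries lay above all PBS libraries. Between PBS and the vitamin group Anln, Prc1 and Ect2 rose (log2 fold changes 2.70, 2.51 and 2.29, adjusted p = 0.0203, 0.0254 and 0.0373, edgeR), and Racgap1 lay just outside the threshold (log2 fold change 1.74, adjusted p = 0.0505).

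Anaphase begins when the anaphase-promoting complex (APC/C), activated by CDC20 and working with the ubiquitin-conjugating enzyme UBE2C, releases separase, the product of Espl1. Cdc20 (ENSMUSG00000006398, chromosome 4, 118432901 to 118437352, minus strand) had FPKM of 2.30, 14.8 and 2.36 with PBS, 7.48, 29.9 and 9.52 with RANKL, and 19.6, 28.9 and 23.9 with the vitamins. Ube2c (ENSMUSG00000001403, chromosome 2) had FPKM of 4.78, 12.6 and 4.49 with PBS, 8.05, 22.2 and 9.95 with RANKL, and 20.9, 26.5 and 22.7 with the vitamins. Espl1 (ENSMUSG00000058290, chromosome 15, 102296266 to 102324357, plus strand) had FPKM of 0.435, 2.17 and 0.634 with PBS, 3.15, 8.45 and 3.24 with RANKL, and 2.89, 6.89 and 3.62 with the vitamins. Every RANKL library of Espl1 was above every PBS library, and its RANKL and vitamin libraries overlapped. Espl1 had the largest difference of the set between RANKL and PBS, 2.06 in log2 units (standard error 0.61, adjusted p = 0.106, edgeR), and with the replicate block it rose by 2.22 (standard error 0.242, adjusted p = 0.00647). Between RANKL and the vitamin group its log2 fold change was -0.01, with a 95% interval of -1.33 to 1.31, so that a change of that size either way was not detectable at this spread. Ube2c rose between PBS and the vitamin group by 1.71 (adjusted p = 0.0141, edgeR), and 22.8% of its exon bases are shared with Tnnc2 on the other strand.

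Condensin compacts mitotic chromosomes, and 3 of its genes are in the set. Smc2 (ENSMUSG00000028312, chromosome 4), the ATPase core subunit, had FPKM of 1.63, 6.00 and 2.14 with PBS, 4.41, 19.8 and 5.71 with RANKL, and 15.3, 26.4 and 18.7 with the vitamins. Ncaph (ENSMUSG00000034906, chromosome 2) had FPKM of 1.44, 4.64 and 1.91 with PBS, 2.63, 12.4 and 3.93 with RANKL, and 8.29, 14.2 and 9.57 with the vitamins. Smc2, Ncapg and Ncaph all rose between PBS and the vitamin group (log2 fold changes 2.64, 2.77 and 2.02, adjusted p = 0.0094, 0.0212 and 0.022, edgeR), and Smc2 had the smallest adjusted p-value of the set in that comparison.

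Because the whole set moved between libraries, each gene was also read relative to the median member of its own library, which removes the level that the 50 genes share. On this scale the RANKL and RANKL + Vit D + K libraries did not overlap for 23 members, with 16 higher and 7 lower in the vitamin group. Scaled in the same way, 1.56% of all genes were higher and 31.3% lower without overlap, most genes lying lower because the set itself was higher. The 16 were Ccnb1, Mki67, Top2a, Bub1, Kif11, Kif4, Kif18b, Cenpe, Ndc80, Tpx2, Ckap2l, Prc1, Anln, Ect2, Smc2 and Ncapg. The 7 were Aurka, Bub1b, Aurkb, Kif20a, Kif22, Cenpf and Espl1. Relative to the median member, Bub1 stood at -0.0547, 0.222 and 0.0912 on the log2 scale in the RANKL replicates and at 1.20, 0.708 and 0.914 in the vitamin replicates. Espl1 stood at 0.744, 0.272 and 0.474 with RANKL and at -0.540, -0.147 and -0.578 with the vitamins. In CPM, the ratio of Bub1 to Espl1, a pair chosen after its values were seen, was 1.12, 1.26 and 0.707 with PBS, 0.575, 0.966 and 0.767 with RANKL, and 3.34, 1.81 and 2.81 with the vitamins. Replicate 2 of the vitamin group had the lowest of its 3 ratios, still above every other library. With 3 libraries against 3, the smallest p-value of an exact two-sided permutation test is 0.1, so these contrasts are descriptions.

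**Figure D5:**
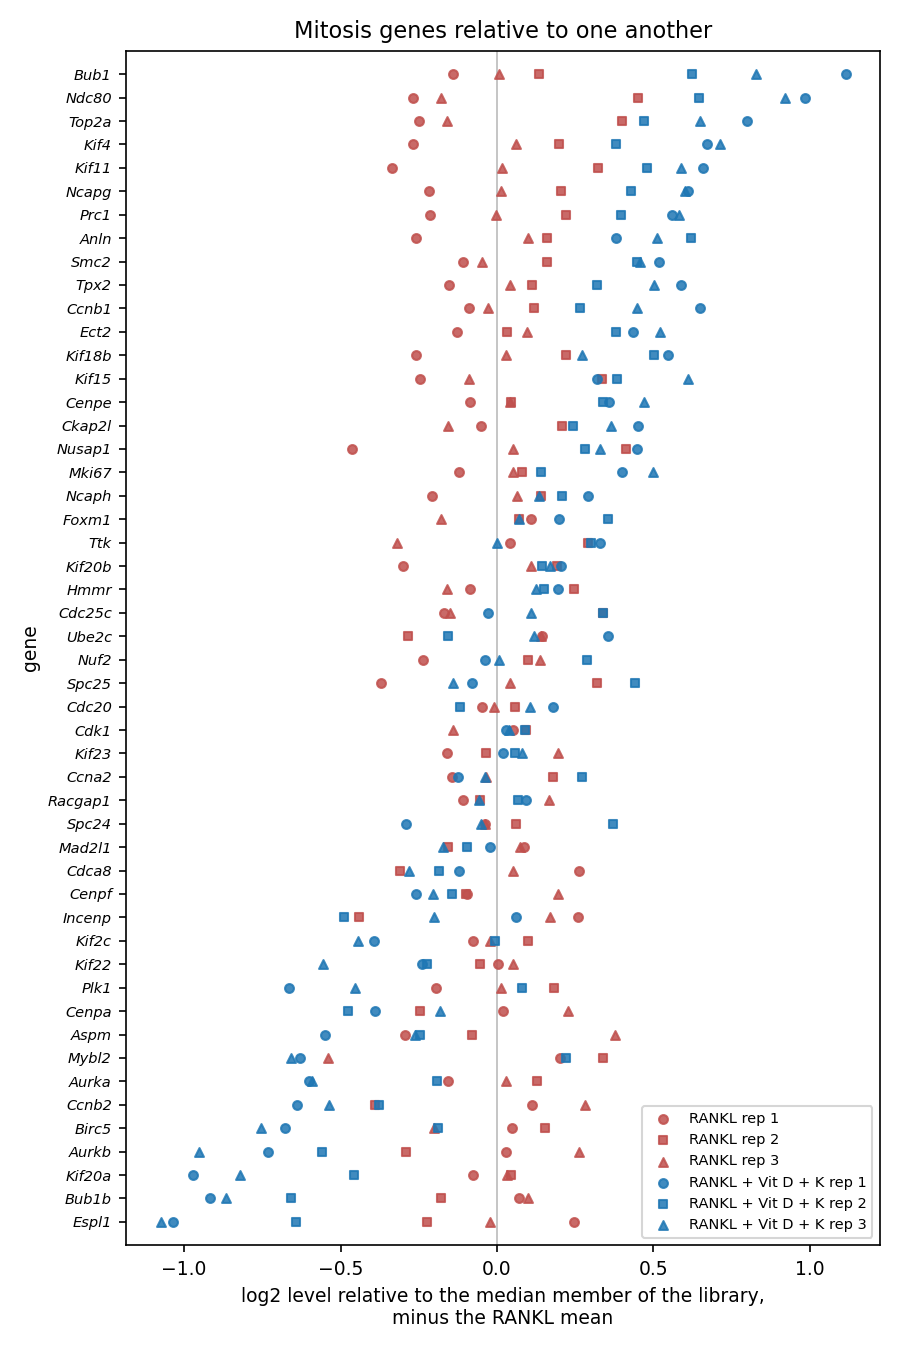
Log2 CPM of each mitosis gene (y axis, ordered by the difference of the group means) relative to the median member of the same library, minus the mean of the RANKL group (x axis), with a point per RANKL (red) and RANKL + Vit D + K (blue) library. Bub1, Ndc80 and Top2a lie to the right in all 3 vitamin libraries, and Espl1, Bub1b and Kif20a lie to the left.

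Other genes of the same machinery were read from fixed lists, to be set against the shares of all genes called. These were 19.8% higher and 21% lower between PBS and the vitamin group, and 16.4% higher and 17.2% lower between RANKL and the vitamin group. Of 52 further mitotic genes, 26 were higher and 1 lower (Pttg1, for securin, log2 fold change -0.996) between PBS and the vitamin group. Between RANKL and the vitamin group 7 of them rose (Mis12, Plk4, Cdc25b, Ckap5, Wee1, Pkmyt1 and Smc4), which is a share near that of all genes. Between PBS and RANKL none passed in edgeR's test without the block and 10 rose with it, against 3.16% of all genes. Without the replicate 2 libraries 33 were higher and 1 lower between PBS and RANKL, where 5.73% of all genes were called higher, and 44 and 1 between RANKL and the vitamin group, where 24.6% were. In the same fit 48 were higher and 1 lower between PBS and the vitamin group, where 25.9% of all genes were called higher. The most abundant, Smc4, the partner of Smc2 in condensin, had FPKM of 13.4, 32.5 and 16.1 with RANKL and 41.5, 39.8 and 44.0 with the vitamins, and rose by 1.19 in log2 units (standard error 0.295, adjusted p = 0.0148, edgeR). Ncaph2, of condensin II, had FPKM of 19.4, 29.3 and 20.7 with RANKL and 15.8, 29.6 and 18.5 with the vitamins, a difference of 0.01 in log2 units (adjusted p = 0.965).

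A list of 15 APC/C genes, the core subunits with the co-activator Fzr1, had median log2 fold changes of 0.03 between RANKL and PBS and 0.25 between the vitamin group and PBS. Between RANKL and the vitamin group 3 rose (Anapc1, Cdc16 and Cdc27) and 4 fell (Anapc2, Anapc13, Anapc15 and Cdc26), shares near those of all genes. Without the replicate 2 libraries these counts were 4 and 4, where 24.6% of all genes were called higher and 27.4% lower. Cohesin holds sister chromatids together, and the list of 9 genes holds its subunits and regulators, among them the loader Nipbl and the release factor Wapl. With the vitamins 6 rose over RANKL alone (Smc3, Rad21, Stag1, Pds5a, Wapl and Nipbl), against 16.4% of all genes, and 8 did without the replicate 2 libraries, against 24.6%. Rad21, for the subunit that separase cuts, rose by 0.77 in log2 units (adjusted p = 0.0417, edgeR).

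Genes of DNA replication and S phase, which are expressed before mitosis, were also high in replicate 2. In CPM scaled by TMM it was the highest library for 34 of 40 genes in the PBS group, 39 in the RANKL group and 39 in the vitamin group, against 34%, 35.7% and 44.5% of all genes, with median ratios to the mean of the other replicates of 1.48, 3.24 and 1.53. The PBS ratio was smaller than the 5.18 of the mitosis genes. Of the 40, 31 were higher and 1 lower (E2f2) between PBS and the vitamin group, 1 was higher between RANKL and the vitamin group (Cdt1, log2 fold change 1.45, adjusted p = 0.00178, edgeR), and none passed between PBS and RANKL without the block. With the block 14 of the 40 rose between PBS and RANKL, against 3.16% of all genes, among them Rrm2, for a subunit of ribonucleotide reductase (adjusted p = 0.00326, edgeR). Without the replicate 2 libraries 22 rose between PBS and RANKL (5.73% of all genes), and 26 rose and 1 fell between RANKL and the vitamin group (24.6% of all genes higher). In the same fit 34 rose and 1 fell between PBS and the vitamin group (25.9% of all genes higher). A list of 15 genes that govern entry into the cycle holds the D-type cyclins, their kinases, CDK inhibitors and the pocket proteins Rb1, Rbl1 and Rbl2. Between PBS and RANKL 1 of the 15 rose, Cdk6 (log2 fold change 1.48, adjusted p = 0.0199, edgeR), against 2.35% of all genes. With the vitamins 4 of them rose over RANKL alone (Ccnd2, Cdk4, Cdkn1a and Cdkn1c) and 2 fell (Ccnd3 and Rbl2). The shares of all genes were 16.4% higher and 17.2% lower. Without the replicate 2 libraries 5 rose and 2 fell, where 24.6% of all genes were called higher and 27.4% lower. Ccnd2, for cyclin D2, was near the lower end of detection, with FPKM of 0.049, 0.019 and 0.0127 with RANKL and 0.162, 0.429 and 0.249 with the vitamins (adjusted p = 0.00376, edgeR). The inhibitor gene Cdkn1c had FPKM of 1.42, 1.79 and 1.79 with RANKL and 30.9, 2.71 and 14.3 with the vitamins (adjusted p = 0.00747, edgeR), and its replicate 2 was far below the other vitamin libraries. Cdkn1a, for the inhibitor p21, had FPKM of 28.9, 35.8 and 41.2 with RANKL and 55.9, 54.6 and 55.5 with the vitamins, a rise of 0.80 in log2 units (adjusted p = 0.0131, edgeR).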

How the data were processed

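The mitosis genes and all other lists were chosen with earlier results of these data known. The authors deposited 1 table with whole-number counts per gene, which they did not normalize, and FPKM, which the authors scaled to transcript length and library size. The submitters' processing notes name cutadapt 1.9, HISAT2 2.0.4, StringTie 1.3.4d and edgeR, and the human build hg38. The gene identifiers are of mouse, and for 47 of the 50 members the coordinates equal those of GENCODE M21 (GRCm38). Strand use is not given in the sources used here. Counts were filtered (filterByExpr), TMM-normalized and tested with edgeR 4.0.16 in R 4.3.3 (quasi-likelihood, 3 groups, 9 libraries), with Benjamini-Hochberg adjustment over 17002 genes and a threshold of 0.05. Standard errors are the log2 fold change over the square root of F, intervals are 95%, and they cover the spread between libraries. DESeq2 1.42.0 and limma 3.58.1 served as alternatives, with the filter, the scaling, the replicate block and each library varied. The scripts were tested on simulated data for the vitamin group against RANKL. There edgeR called 37% of 2-fold and 76% of 4-fold changes. When the replicate 2 libraries shared a simulated effect, it called 0% and 53% without the block and 26% and 74% with it. Members named with every library are the 2 with the highest mean FPKM of each of 12 role classes and the 3 with the largest changes in each of the first 2 comparisons. Deviations of same-numbered libraries from their group means correlated across all genes by 0.122, 0.219 and 0.155 between PBS and RANKL. All exceed 0.1, so the block is given beside that comparison. The labels do not say what the number marks. In 15 members some exon bases are shared with a neighbouring gene. Promoters are those of RefSeq, GRCm38.p6. The counts of all 36 pairs of libraries differed.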

Additional observations from a re-analysis of the deposited data

How the results depend on the processing

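All 9 libraries enter each value unless stated, and the removal of all replicate 2 libraries together, also for the other gene lists, was chosen after seeing the data. With the replicate number as a block, members higher numbered 10 for RANKL against PBS, 29 for the vitamin group against RANKL and 50 for the vitamin group against PBS, where 3.16%, 17.4% and 20.4% of all genes were called higher. Same-numbered libraries correlated by 0.00625, 0.0428 and 0.107 between the 2 RANKL-treated groups and by -0.0216, 0.0217 and 0.0237 between the vitamin and PBS groups, and for each of these pairs of groups 2 of 3 libraries correlated best with their own number. DESeq2 called 2 and 1 members in the first 2 comparisons. With the replicate 2 libraries removed, 43, 43 and 50 members were higher. Leaving out 1 library at a time gave 0 to 1, 0 to 9 and 2 to 50 members higher, and 0 lower throughout.

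Over all genes, RANKL against PBS gave 1056 higher and 643 lower by DESeq2, 1034 and 702 with only the 2 groups compared, 605 higher by limma on log2(FPKM + 0.1), 122 lower without a filter, 987 and 753 without the replicate 2 libraries, and 96 to 972 and 30 to 931 when 1 library was left out. The vitamin group against RANKL gave 2184 higher and 3953 lower by limma on log2(FPKM + 0.1), where edgeR gave 2796 and 2929, and 1912 lower with only these groups, 4233 and 4719 without the replicate 2 libraries, and 1578 to 3773 and 1621 to 4486 with 1 library left out. The vitamin group against PBS gave 2469 to 4143 and 2297 to 4725 with 1 library left out.

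The changes of sign in these members all fell in the first 2 comparisons, where edgeR's model of all 9 libraries called none of them. With 1 library left out, log2 fold changes of RANKL against PBS ran from -0.181 to 0.438 for Incenp and from -0.0444 to 1.26 for Cenpa. Those of the vitamin group against RANKL ran from -0.197 to 1.47 for Mybl2, -0.0196 to 1.35 for Plk1, -0.0471 to 1.17 for Aurka, -0.214 to 0.657 for Bub1b, -0.146 to 0.648 for Aurkb, -0.299 to 0.856 for Kif20a and -0.362 to 0.558 for Espl1. These are the members described library by library. Of all 50, 46 stayed above 0 for RANKL against PBS without RANKL replicate 2, and for the vitamin group against RANKL 44, 46 and 42 did without RANKL replicate 1, RANKL replicate 3 and replicate 2 of the vitamin group. Without the replicate 2 libraries Incenp stood at -0.0224 for RANKL against PBS and Espl1 at 0.203 for the vitamin group against RANKL, where the block gave 0.0774. The vitamin libraries lay above all RANKL libraries for 7 members in CPM and 1 in FPKM, a scale added after both were seen. The cause of these differences was not tested. The lowest count of a member in any library was 41, above the floor of 3.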
